A study of Mus musculus with 10 samples.

Results

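The insulin-like growth factor (IGF) genes described here are 10 genes of the mouse: the ligands Igf1 and Igf2, the receptors Igf1r and Igf2r, and the binding proteins Igfbp2, Igfbp3, Igfbp4, Igfbp5, Igfbp6 and Igfbp7. They were taken by gene symbol, as every probe set whose platform annotation gives exactly 1 symbol among these names, which gave 28 probe sets of the 34958 with 1 symbol, or 10 genes of 18194. A further probe set annotated to both Airn and Igf2r was left out by this rule. RNA came from the secondary palate of embryos labelled C57B6 at embryonic stage E14.5, and each sample was hybridised to 1 Affymetrix array. The mutant group had 5 arrays of the genotype Tgfbr2fl/fl;Wnt1-Cre, in which floxed alleles of the type II TGF-beta receptor are deleted in the neural crest and its descendants, and the control group had 5 arrays of Tgfbr2fl/fl, whose label lists no Cre. Effects of carrying Cre and of losing Tgfbr2 therefore cannot be told apart. The sample titles call the controls Tgfbr2 wildtype. Sex is labelled as not determined, and the comparison addresses how gene expression in the forming palate depends on TGF-beta signalling in neural crest cells. No label states that the samples came from different embryos, and p-values here therefore reflect variation among the samples, which may be technical.

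IGF ligands are secreted growth factors that promote proliferation and survival, and Igf2 is the main ligand of embryonic growth. Igf1r is the tyrosine kinase receptor that carries their signal, while Igf2r takes up Igf2 and delivers it to lysosomes without a growth signal of its own. Binding proteins hold the ligands outside cells, extending their life or keeping them from the receptor, and some are released by proteases. In the palate most mesenchyme descends from the neural crest, whereas epithelium, endothelium and muscle precursors do not and keep Tgfbr2 in this model.

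Array medians were 6.4 or 6.5 on the log2 scale, and values ran from 2.2 to 14.3 in steps of 0.1. Control replicate 1 stood apart: its correlation with the other 9 arrays was 0.978 to 0.982, against 0.990 to 0.996 among those 9. The number of arrays limits the precision. Levels below are log2 values, and each probe set is compared only with itself, since the brightness of different probe sets is not comparable. In bulk tissue, fewer cells of a type and less RNA per cell cannot be told apart.

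No transcript of an IGF ligand or receptor passed the test between mutant and control palate, over all probe sets or over genes. Each of these fits called 1 member, Igfbp3 lower over probe sets and Igfbp4 higher over genes, and neither fit called both. Of all probe sets 2.18% were called lower, and of all genes 2.9% were called higher. Igfbp3 was 1.28-fold lower in mutant than in control palate on the probe set 1458268_s_at (adjusted p = 0.0353). Its brighter probe set, 1423062_at, was not called (adjusted p = 0.125). Igfbp4 was 1.16-fold higher on its brightest probe set when each gene was represented once (adjusted p = 0.0325). Over all probe sets it was not called (adjusted p = 0.0589). Both calls were lost when most single arrays were left out, as given with each gene below.

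Of the 28 probe sets, 1 was lower and none higher in mutant arrays at an adjusted p under 0.05 by limma, fitted and adjusted over all 45101 probe sets. Of all probe sets on the array, 2.18% were lower and 1.08% higher by the same rule, so 1 of 28 is near the background. At an unadjusted p under 0.05, 10 of the 28 were higher and 2 lower, against 8.37% higher and 11.2% lower of all probe sets. Those 10 were all 6 probe sets of Igfbp4, 2 of Igfbp7, 1 of Igfbp5 and 1 of Igf1r, and probe sets of 1 gene share their transcript and are not independent. All mutant arrays lay above all control arrays for 2 of the 28 and below them for 1, against 1.45% and 3.41% of all probe sets. The median log2 fold change of the 28 was 0.10, with a range of -0.36 to 0.38, and that of all probe sets was 0.00. By role, the 6 ligand probe sets had 3 positive and 3 negative changes with a median of 0.03, the 7 receptor probe sets had 4 positive, 2 negative and 1 zero with a median of 0.04, and the 15 binding protein probe sets had 12 positive and 3 negative with a median of 0.22. The SD of a group of 5 arrays was 0 to 0.56 over the 28 probe sets, with a median of 0.13.

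With each gene represented by the probe set of highest mean, 1 of the 10 members, Igfbp4, was higher at an adjusted p under 0.05 and none was lower, against 2.9% higher and 5.36% lower of 18194 genes. At an unadjusted p under 0.05, 3 members were higher and 1 lower in that fit, against 10% higher and 15.1% lower of all genes. The 95% confidence intervals of the log2 fold change of 5 of the 28 probe sets reach a 1.5-fold change, and those of the others do not. Those 5 belong to Igf2, Igf1r, Igfbp4, Igfbp5 and Igfbp7.

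**Figure D1:**
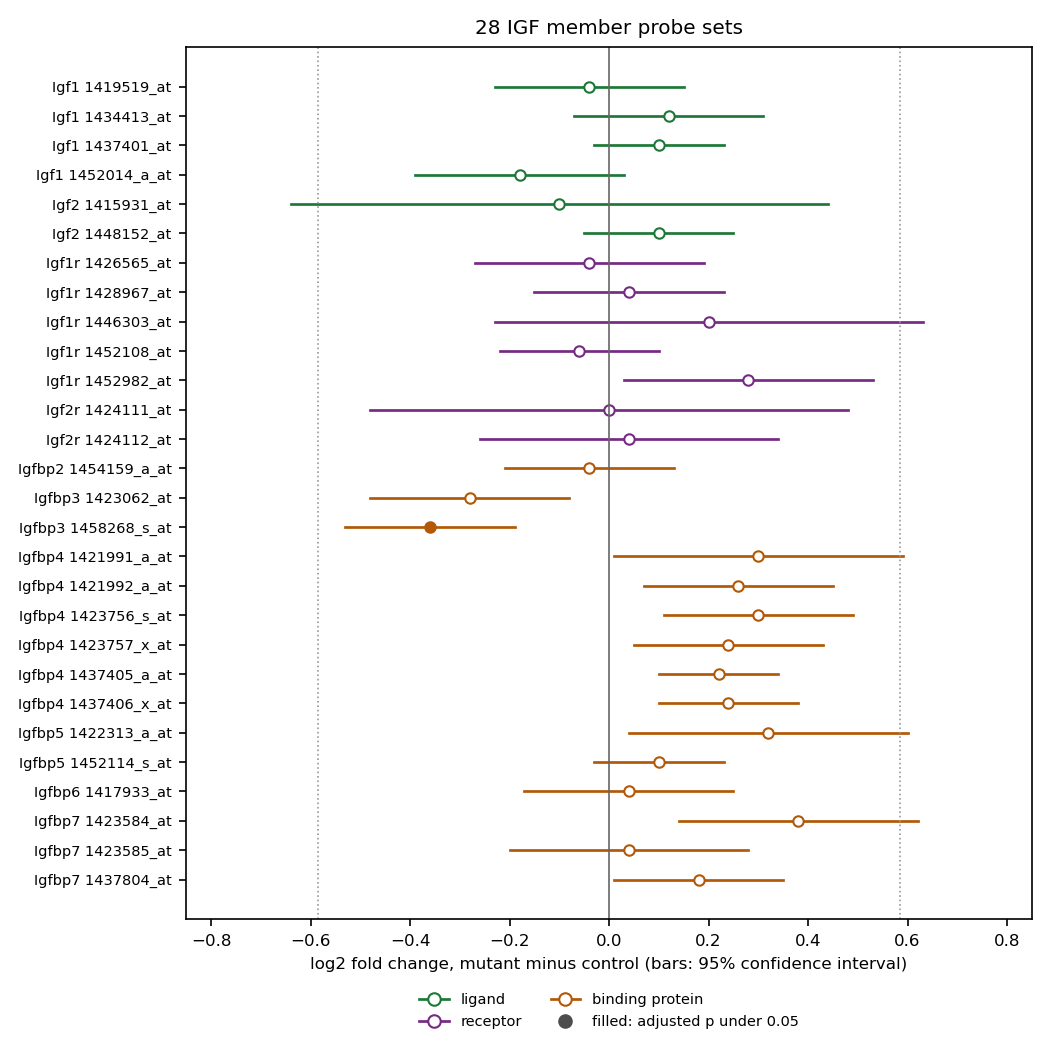
Log2 fold change, mutant minus control, of the 28 probe sets of the IGF members (points) with 95% confidence intervals (bars), coloured by role; dotted lines mark a 1.5-fold change. The 1 filled point, an adjusted p under 0.05, is Igfbp3 1458268_s_at at -0.36, while all 6 probe sets of Igfbp4 lie between 0.22 and 0.30.

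The proximal promoters of Igfbp3 and Igfbp4 are shown because each was called in 1 fit, in opposite directions, in a TGF-beta receptor mutant. No single fit called both, Igfbp3 being called over probe sets and Igfbp4 over genes. Both windows come from RefSeq in the build GRCm38.p6 and run from 250 bases before to 50 bases after an annotated start. That of Igfbp3 is chr11:7213874-7214173 on the minus strand, and that of Igfbp4 is chr11:99040994-99041293 on the plus strand. Capitals mark matches to TATAAA or TATATA on the sense strand, forms of the TATA box that positions the transcription machinery.
Igfbp3: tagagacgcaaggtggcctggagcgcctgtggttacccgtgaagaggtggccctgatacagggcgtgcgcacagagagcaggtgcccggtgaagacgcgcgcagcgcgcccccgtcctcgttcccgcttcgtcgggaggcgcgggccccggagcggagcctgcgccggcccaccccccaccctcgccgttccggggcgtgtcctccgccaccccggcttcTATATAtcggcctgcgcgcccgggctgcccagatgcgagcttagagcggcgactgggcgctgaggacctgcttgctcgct
Igfbp4: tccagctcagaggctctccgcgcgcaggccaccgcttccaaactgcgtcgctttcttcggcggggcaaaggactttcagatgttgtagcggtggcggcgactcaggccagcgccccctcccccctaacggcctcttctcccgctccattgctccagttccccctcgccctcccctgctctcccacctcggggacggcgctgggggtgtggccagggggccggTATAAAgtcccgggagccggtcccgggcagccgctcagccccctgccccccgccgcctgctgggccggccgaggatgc

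Igfbp3 holds TATATA from base -30, and Igfbp4 holds TATAAA from base -28. Of 32851 such windows, 5.67% hold TATATA and 8.32% hold TATAAA on the sense strand, and each was found in 1 of the 14 windows of the members. TATATA was added to the search after the sequences had been read. The core of the SMAD-binding CAGA box, CAGAC on either strand, was in neither of these 2 windows, and it was in 8 of the members' 14 windows and in 49.6% of all windows. The windows of Igfbp3 and Igfbp4 are rich in G and C, at 71.7% and 71.3%. A match describes letters only, and the absence of one says nothing about binding.

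The ligand transcripts did not pass the test in either direction. Igf2, which is expressed from the paternal allele, read 13.5, 13.4, 13.5, 13.5 and 13.5 in mutant replicates 1 to 5, against 13.2, 13.5, 13.3, 13.4 and 13.5 in control replicates 1 to 5 on the probe set 1448152_at. The groups overlapped, and the log2 fold change was 0.10 (SE 0.07, 95% interval -0.05 to 0.25, adjusted p = 0.463). The other Igf2 probe set, 1415931_at, is annotated to the same RefSeq transcript and averaged 7.36 ± 0.31 in mutant and 7.46 ± 0.56 in control arrays (SD, n = 5 each). Its 8.4 in control replicate 1 was the highest of the 10 arrays, and the log2 fold change of -0.10 with that array became 0.135 without it. The change on 1415931_at minus that on 1448152_at was -0.20 (95% interval -0.82 to 0.42), and 0.08 without control replicate 1.

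Igf1, the ligand that acts as a growth factor in both embryo and adult, had 4 probe sets with log2 fold changes of -0.18 to 0.12, 2 positive and 2 negative. The brightest, 1437401_at, read 12.0, 12.0, 12.1, 12.0 and 12.0 in mutant replicates 1 to 5, against 11.9, 12.0, 11.9, 11.8 and 12.0 in control replicates 1 to 5 (log2 fold change 0.10, SE 0.06, adjusted p = 0.377). No mutant array was below the highest control array, but ties at 12.0 left the groups touching. The probe set 1452014_a_at read 9.0, 9.0, 9.0, 9.3 and 9.2 in mutants, against 9.3, 9.4, 9.4, 9.0 and 9.3 in controls, a log2 fold change of -0.18 (SE 0.09, adjusted p = 0.319). Mutant replicates 4 and 5 and control replicate 4 went against the difference of the means. The change on 1452014_a_at minus that on 1437401_at was -0.28 (95% interval -0.47 to -0.09), a pair chosen after the values were seen and given without a p. The probe sets 1419519_at and 1434413_at averaged 9.34 ± 0.15 and 11.56 ± 0.15 in mutant arrays, against 9.38 ± 0.13 and 11.44 ± 0.11 in control arrays (SD, n = 5 each).

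Of the receptors, Igf1r had 5 probe sets with log2 fold changes between -0.06 and 0.28. The brightest, 1452982_at, read 11.1, 11.3, 11.1, 11.0 and 11.1 in mutant replicates 1 to 5, against 10.4, 10.8, 11.0, 11.0 and 11.0 in control replicates 1 to 5. The groups met at 11.0, and control replicate 1 was the lowest array. The log2 fold change was 0.28 (SE 0.12, unadjusted p = 0.0338, adjusted p = 0.213) with all arrays and 0.17 without control replicate 1. On 1446303_at the mutants read 7.9 to 8.2, the controls other than replicate 1 read 7.9 to 8.3 and control replicate 1 read 7.1, and the log2 fold change was 0.20 with it and -0.005 without it. The other 3 probe sets, 1426565_at, 1428967_at and 1452108_at, gave -0.04, 0.04 and -0.06 (adjusted p = 0.865, 0.826 and 0.675). The change on 1452108_at minus that on 1452982_at was -0.34 (95% interval -0.64 to -0.04) and -0.215 without control replicate 1, again a pair chosen after the values were seen.

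Igf2r, the clearance receptor, which in the mouse is expressed mainly from the maternal allele, varied more among the mutant arrays than between the groups. The probe set 1424111_at read 8.9, 9.3, 9.4, 10 and 10.1 in mutant replicates 1 to 5, against 9.1, 9.6, 9.8, 9.6 and 9.6 in control replicates 1 to 5. The probe set 1424112_at read 9.9, 10.2, 10, 10.6 and 10.6 in mutants, against 10.1, 10.2, 10.4, 10.2 and 10.2 in controls. On both probe sets mutant replicates 4 and 5 were the highest of all 10 arrays and mutant replicate 1 the lowest. The log2 fold changes were 0.00 (SE 0.22, adjusted p = 1) and 0.04 (SE 0.14, adjusted p = 0.904). Their 95% intervals were -0.48 to 0.48 and -0.26 to 0.34.

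**Figure D2:**
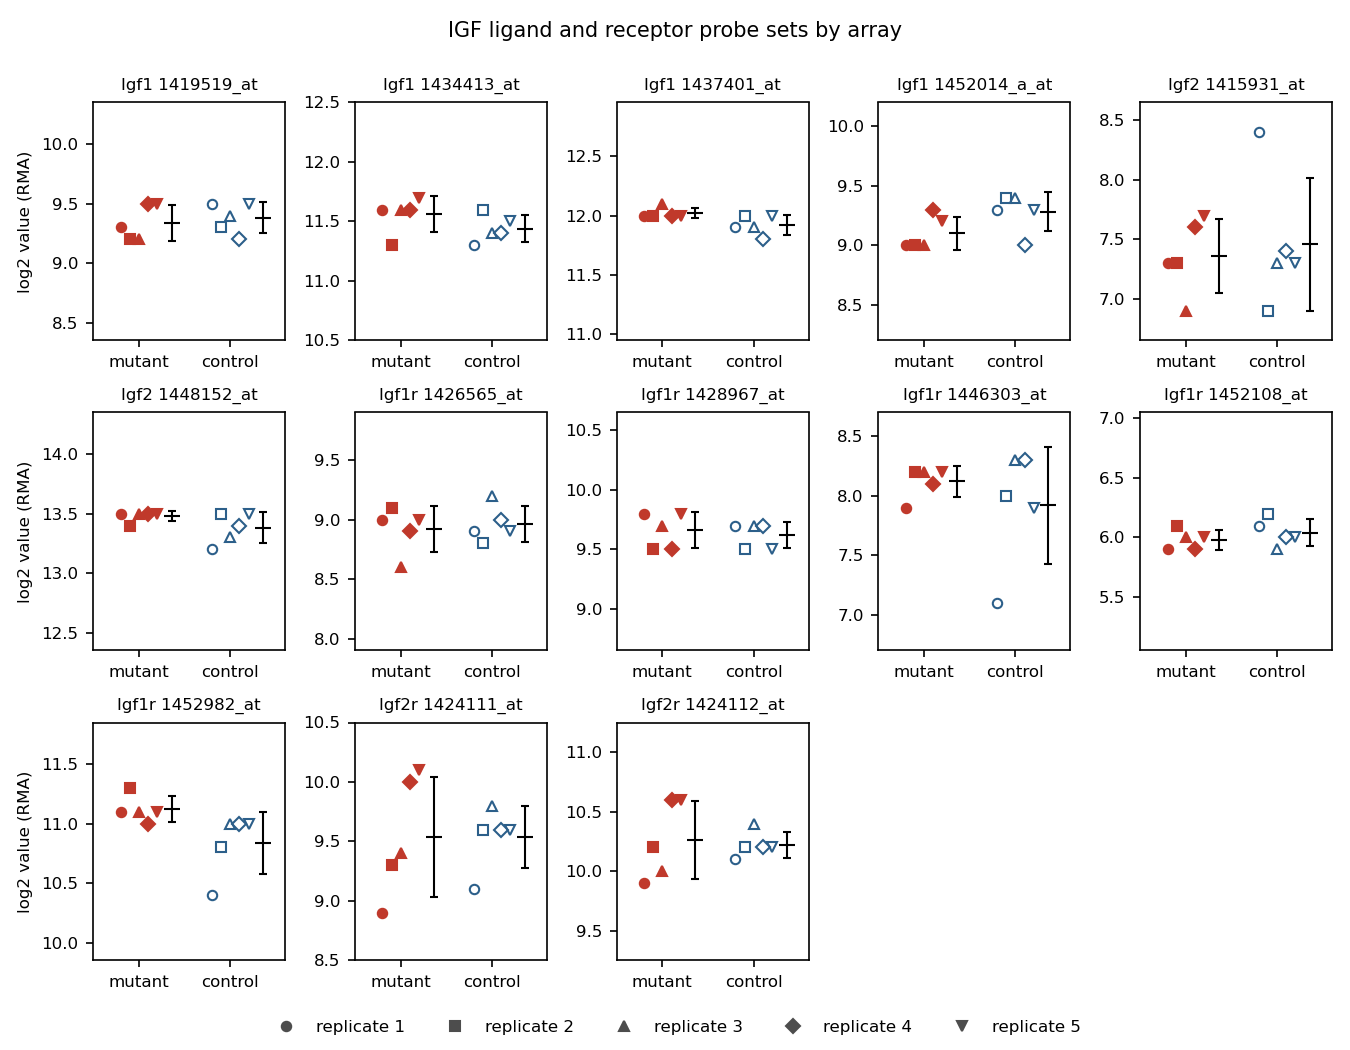
Log2 values of the 13 ligand and receptor probe sets in each array, with mutant (filled) left of control (open) and the mean ± SD beside each group of 5; each panel spans 2 log2 units. Groups overlap or touch in every panel, and control replicate 1 (open circle) is far from the other controls for Igf2 1415931_at (8.4), Igf1r 1446303_at (7.1) and 1452982_at (10.4), and Igf2r 1424111_at (9.1).

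Igfbp3, the carrier that holds most circulating IGF in the adult and whose gene is induced by TGF-beta in several cultured cell types, was lower in mutant palate. The probe set 1458268_s_at read 10.4, 10.1, 10.3, 10.3 and 10.5 in mutant replicates 1 to 5, against 10.6, 10.7, 10.8, 10.6 and 10.7 in control replicates 1 to 5. By Affymetrix naming, its suffix _s_at marks a probe set whose probes may also match other sequences. Every mutant array was below every control array. It fell by 0.36 on the log2 scale (SE 0.08, 95% interval -0.53 to -0.19, adjusted p = 0.0353), at 10.32 ± 0.15 in mutant and 10.68 ± 0.08 in control arrays (SD, n = 5 each).

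The second Igfbp3 probe set, 1423062_at, read 11.0, 10.8, 10.9, 10.8 and 11.2 in mutants, against 11.3, 11.2, 11.1, 11.1 and 11.4 in controls. Mutant replicate 5 overlapped the controls, and the log2 fold change of -0.28 (SE 0.09, unadjusted p = 0.0111) had an adjusted p of 0.125. The change on 1458268_s_at minus that on 1423062_at was -0.08 (95% interval -0.27 to 0.11). In the main gene fit, which used 1423062_at, Igfbp3 was not called (-0.28, adjusted p = 0.079 over all genes). Averaging both probe sets instead gave -0.32 and an adjusted p of 0.0254 over all genes. The call on 1458268_s_at was lost without any array other than mutant replicate 5 or control replicate 1, with log2 fold changes of -0.405 to -0.305 and adjusted p of 0.0297 to 0.0888 over the 10 omissions. The Y-linked gene Eif2s3y read 9.0 to 9.3 in mutant replicates 1 to 4 and 5.1 in mutant replicate 5, against 9.1 and 9.0 in control replicates 1 and 4 and 3.2 to 3.3 in control replicates 2, 3 and 5, so arrays with a high value were more frequent among mutants. With Eif2s3y as a covariate the log2 fold change of 1458268_s_at was -0.276 (adjusted p = 0.111).

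Igfbp4, a binding protein that mainly keeps IGFs from the receptor until it is cleaved by the protease Pappa, was higher in mutant palate. Its brightest probe set, 1437405_a_at, read 13.1, 13.0, 13.0, 12.9 and 13.1 in mutant replicates 1 to 5 and 12.8 in all 5 control replicates. The mutant arrays were all above the controls, by 1 to 3 steps of the rounding. The log2 fold change was 0.22 (SE 0.06, 95% interval 0.10 to 0.34), with adjusted p = 0.0325 over 18194 genes and adjusted p = 0.0589 over 45101 probe sets.

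All 6 probe sets of Igfbp4 had a positive log2 fold change, from 0.22 to 0.30, with unadjusted p of 0.00237 to 0.0419 and adjusted p of 0.0589 to 0.236 over all probe sets. They form 3 pairs that share an accession and so may measure the same part of the transcript. By Affymetrix naming, the suffixes _s_at and _x_at mark probe sets whose probes may also match other sequences. On 1423756_s_at, which read 12.9, 12.9, 12.7, 12.7 and 13.0 in mutants, against 12.3, 12.6, 12.6, 12.6 and 12.6 in controls, the groups were separate, and control replicate 1 was the lowest array (log2 fold change 0.30 with it, 0.24 without it). On 1437406_x_at the mutants read 13.0, 13.0, 12.9, 12.8 and 13.1, against 12.8, 12.7, 12.7, 12.7 and 12.7 in controls, so that mutant replicate 4 and control replicate 1 were level (log2 fold change 0.24, adjusted p = 0.0711). On 1423757_x_at the mutants read 11.7 to 12.1, against 11.5 to 11.7 in controls. On 1421991_a_at mutant replicate 3 read 9.2, as low as the lowest control, and on 1421992_a_at it read 11.0, as low as 4 of the 5 controls.

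The Igfbp4 call over all genes was lost without any array other than mutant replicate 4 or control replicate 1, with log2 fold changes of 0.20 to 0.225 and adjusted p of 0.054 to 0.0786 over the 8 omissions that lost it. It was also lost with each array centred on its median (adjusted p = 0.0644), with Eif2s3y as a covariate (adjusted p = 0.0628) and with the mean of its 6 probe sets (0.26, adjusted p = 0.0513).

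**Figure D3:**
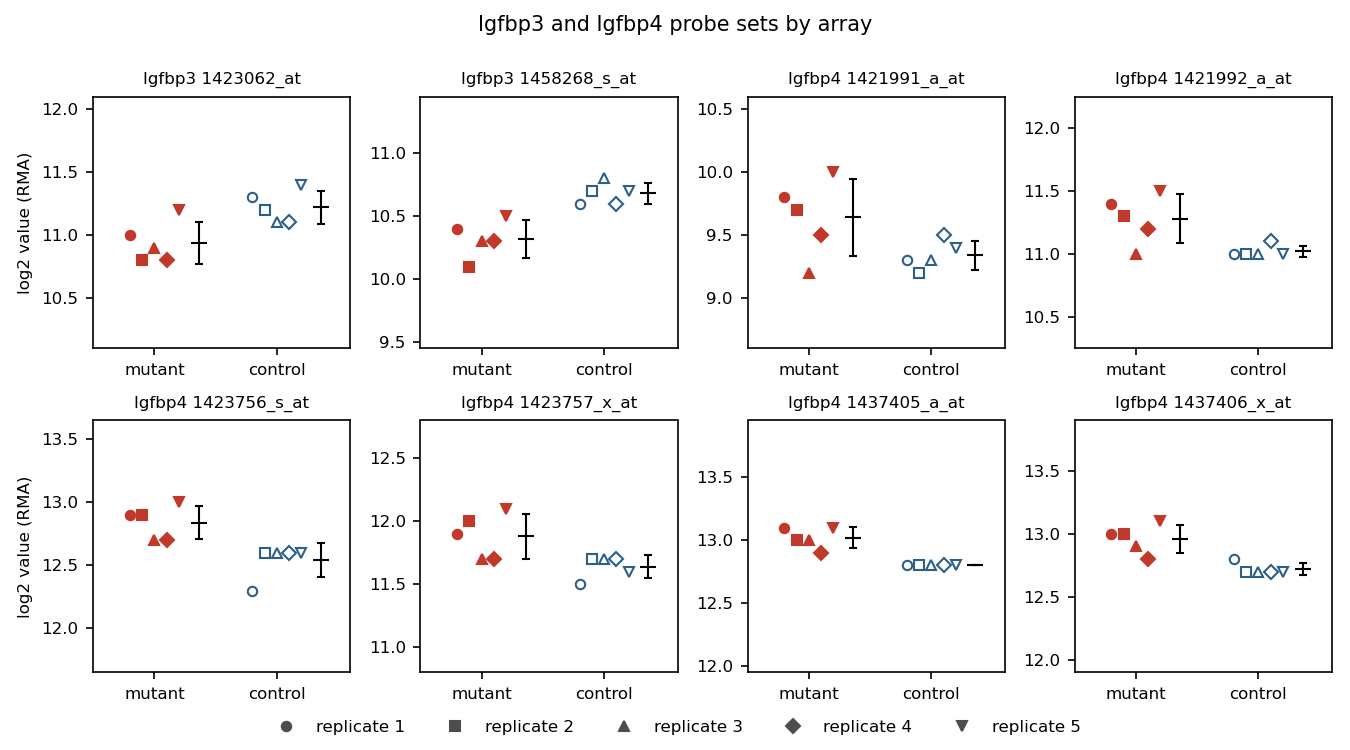
Log2 values of the 2 probe sets of Igfbp3 and the 6 of Igfbp4 in each array, with mutant (filled) left of control (open) and the mean ± SD beside each group of 5; each panel spans 2 log2 units. Mutant arrays lie below all controls on Igfbp3 1458268_s_at (10.1 to 10.5 against 10.6 to 10.8) and above all controls on Igfbp4 1437405_a_at (12.9 to 13.1 against 12.8).

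Igfbp7, a secreted protein that binds IGFs weakly and is abundant around blood vessels, was not called by either fit. Its brightest probe set, 1423584_at, read 8.8, 8.6, 8.7, 8.4 and 8.9 in mutant replicates 1 to 5, against 8.4, 8.5, 8.3, 8.0 and 8.3 in control replicates 1 to 5. Mutant replicate 4 overlapped the controls. The log2 fold change was 0.38 (SE 0.11, 95% interval 0.14 to 0.62), with adjusted p = 0.0521 over genes and adjusted p = 0.0883 over probe sets. It passed over genes without mutant replicate 4 (0.45, adjusted p = 0.0331) or control replicate 2 (0.43, adjusted p = 0.0447), with array weights (0.426, adjusted p = 0.0229), with Eif2s3y as a covariate (0.484, adjusted p = 0.038), with an intensity trend (adjusted p = 0.0431), after quantile normalization again (adjusted p = 0.0476) and among the brighter 60% of genes (adjusted p = 0.0388). It did not pass when any 1 of the other 8 arrays was left out (adjusted p 0.0516 to 0.115) or with each array centred on its median (adjusted p = 0.0792). The mean of its 3 probe sets gave 0.20 (adjusted p = 0.104). The probe sets 1437804_at and 1423585_at gave 0.18 and 0.04 (adjusted p = 0.226 and 0.874), the last at 4.4 to 4.9 in all 10 arrays, below the array medians.

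Igfbp5, which also binds extracellular matrix, had a log2 fold change of 0.32 on 1422313_a_at (SE 0.13, unadjusted p = 0.0268, adjusted p = 0.191) and of 0.10 on the brighter 1452114_s_at (SE 0.06, adjusted p = 0.377). On 1422313_a_at the mutants read 10, 10, 9.7, 10 and 9.9, against 9.3, 9.3, 9.7, 9.8 and 9.9 in controls. Control replicates 1 and 2 were the low arrays, and the other 3 controls overlapped the mutants. On 1452114_s_at the values were 12.9 to 13.0 in mutants, against 12.7 to 12.9 in controls. Igfbp2, whose gene lies next to that of Igfbp5, averaged 11.04 ± 0.13 in mutant and 11.08 ± 0.08 in control arrays (SD, n = 5 each), a log2 fold change of -0.04 (95% interval -0.21 to 0.13, adjusted p = 0.802). Igfbp6, which binds Igf2 in preference to Igf1, read 5.4 to 5.7 in mutants, against 5.3 to 5.8 in controls, below the array medians (log2 fold change 0.04, adjusted p = 0.85).

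**Figure D4:**
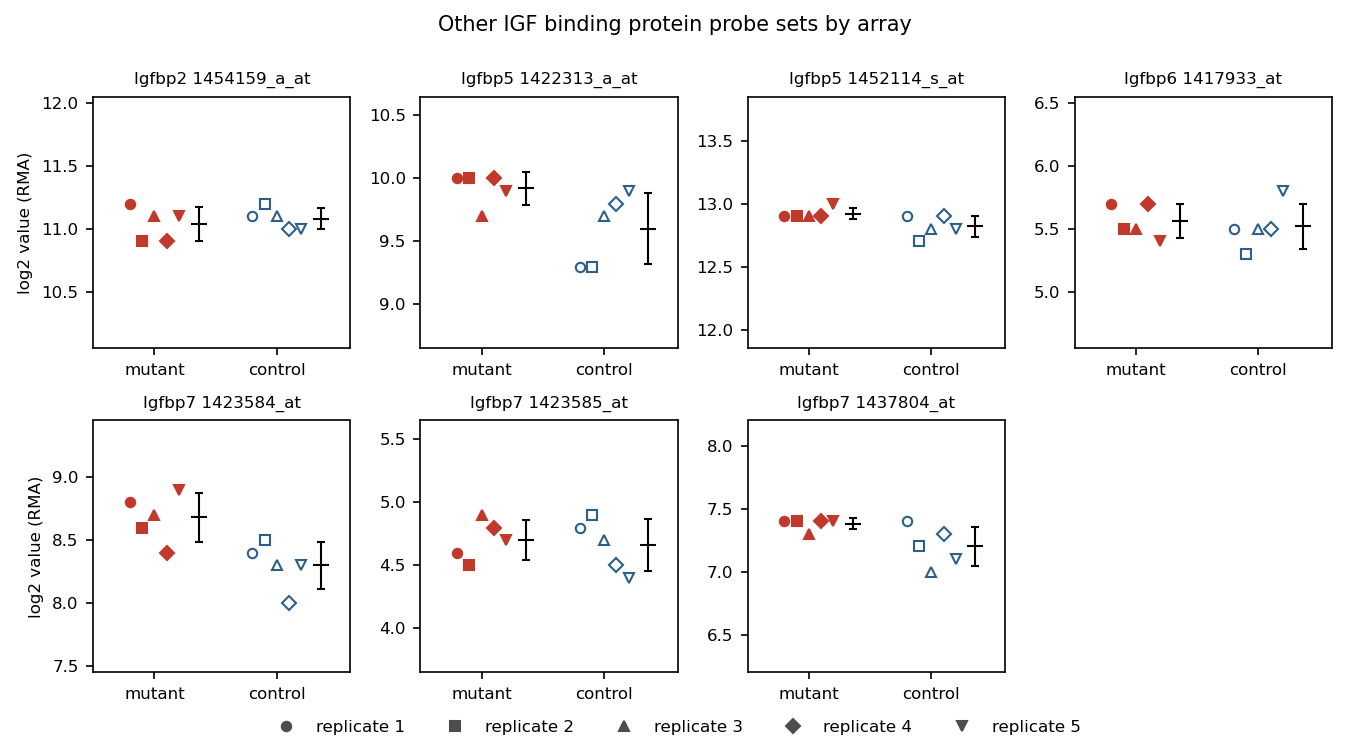
Log2 values of the probe sets of Igfbp2, Igfbp5, Igfbp6 and Igfbp7 in each array, with mutant (filled) left of control (open) and the mean ± SD beside each group of 5; each panel spans 2 log2 units. On Igfbp7 1423584_at 4 of the 5 mutant arrays (8.6 to 8.9) are above the highest control (8.5), and the groups overlap or touch in every panel.

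Among 43 other genes of the pathway, Htra3 was higher and Pik3r3 lower in the gene fit, and 41 were not called. The background is 2.9% higher and 5.36% lower, so these counts do not stand out. Their median log2 fold change was -0.02, and that of all genes 0.00. Htra3, a secreted serine protease of the HtrA family, read 7.6, 7.8, 7.6, 7.6 and 8.0 in mutant replicates 1 to 5, against 7.3, 7.2, 7.1, 7.3 and 7.5 in control replicates 1 to 5. All mutant arrays were above all controls, with a log2 fold change of 0.44 (SE 0.10, adjusted p = 0.0198). Its dimmer probe sets, 1431762_at and 1427029_at, gave 0.20 and 0.08 in the probe set fit. The call was lost without mutant replicate 2 (0.42, adjusted p = 0.0509) or control replicate 3 (0.395, adjusted p = 0.0514).

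Pik3r3, which encodes a regulatory subunit of phosphoinositide 3-kinase downstream of the receptor, read 8.7 in all 5 mutant arrays, against 9.1, 9.0, 9.1, 9.1 and 9.2 in control replicates 1 to 5. The groups were separate by at least 3 rounding steps, and the gene fell by 0.40 on the log2 scale (SE 0.05, adjusted p = 0.00191). The SDs of 0 in mutants and 0.07 in controls are below the rounding step of 0.1, so the rounded values do not resolve the spread. Pik3r3 was measured by the probe set 1456482_at alone. It kept its call without each array in turn, with adjusted p of 0.00192 to 0.00729. Of 20 genes of the phosphoinositide 3-kinase arm it was the 1 called. Of 10 genes that control ligand availability, the other 9 were not called, among them Pappa (0.28, adjusted p = 0.289), the protease that cleaves Igfbp4.

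None of 11 genes for receptor kin and adaptors was called, and at an unadjusted p under 0.05 none was higher and 1, Grb2, was lower, against 10% and 15.1% of all genes. Grb2, an adaptor that links receptors to Ras, had a log2 fold change of -0.24 (SE 0.08, adjusted p = 0.0765). Neither of the 2 measured genes for proteins that bind Igf2 mRNA was called, Igf2bp3 having the smaller p (-0.12, adjusted p = 0.237). Another 5 genes of the list were not analysed here.

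**Figure D5:**
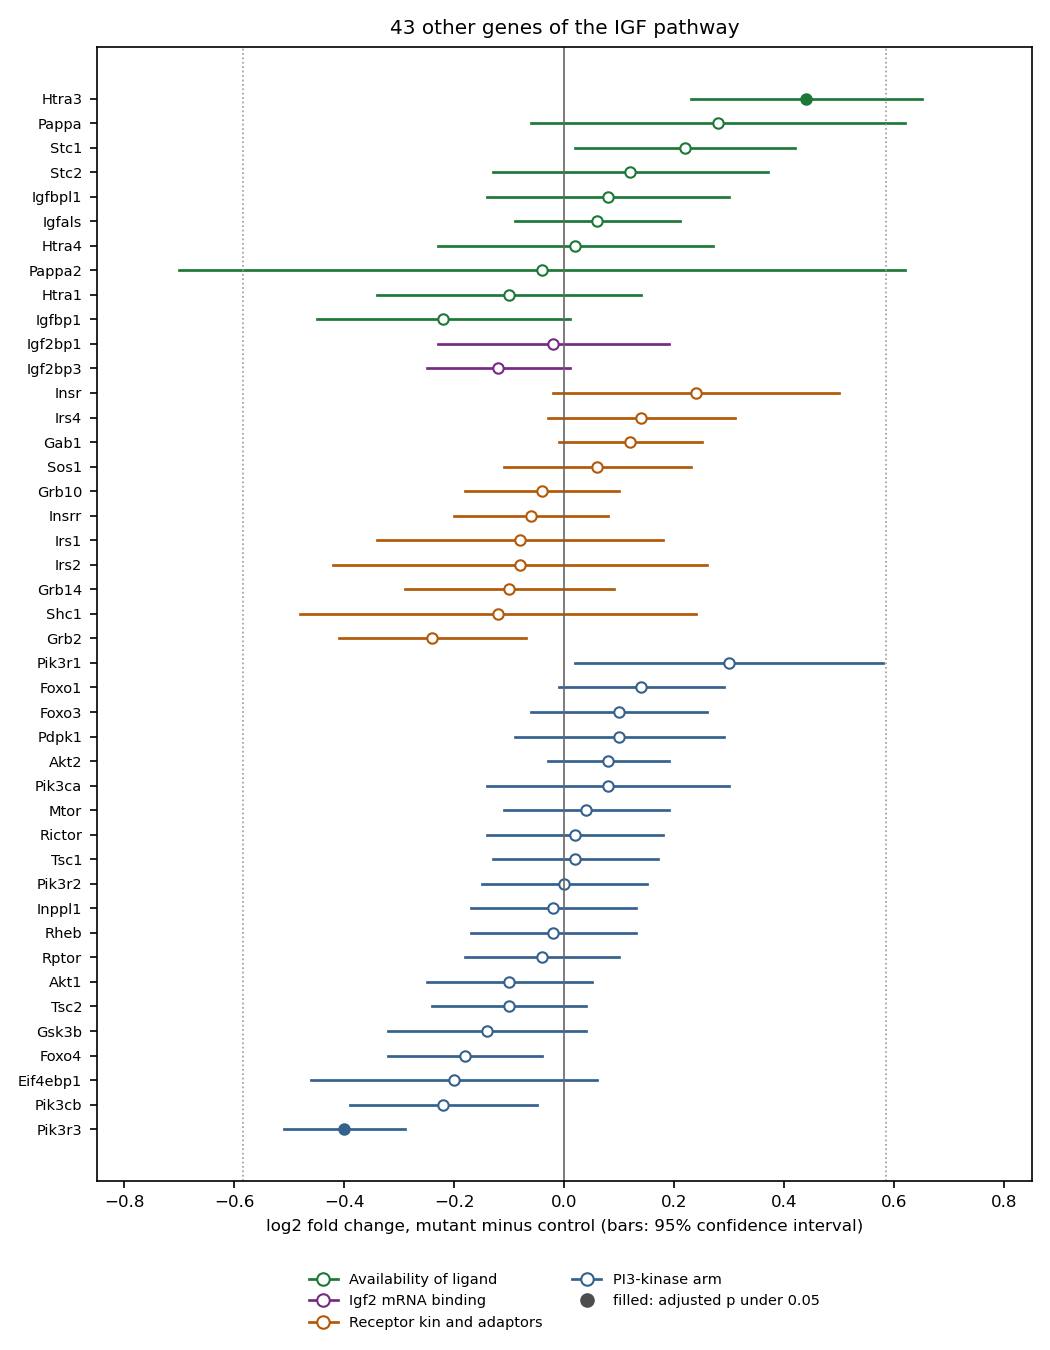
Log2 fold change, mutant minus control, of 43 other genes of the IGF pathway (points, 1 probe set per gene) with 95% confidence intervals (bars), grouped by role; dotted lines mark a 1.5-fold change. The filled points, an adjusted p under 0.05, are Htra3 at 0.44 and Pik3r3 at -0.40.

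Levels of cell type markers are given as linear values summed over each list, and their part in the results above was not tested. Of all genes, 2.9% were called higher and 5.36% lower in the gene fit. The sums were not set against a background. Of 11 measured markers of palatal mesenchyme, all averaged at least 8 on the log2 scale, 1 was called higher, and the sums overlapped at 18300 to 20500 in mutant and 15500 to 20200 in control arrays. Skeletal muscle markers were lower in mutants: 8 of 12 were called and none was higher, with sums of 714 to 4250 in mutant and 3720 to 10200 in control arrays. Of 8 pericyte and smooth muscle markers, Acta2, Myh11 and Rgs5 were called lower and the others were not called. Among those, Pdgfrb (0.34) and Cspg4 (0.06) had positive log2 fold changes, and Tagln (-0.16), Cnn1 (-0.06) and Kcnj8 (-0.06) negative ones. The median of the list was -0.11, and the sums were 4950 to 5640 in mutants and 5720 to 6440 in controls. Of 7 listed osteoblast markers 4 were measured, and none was called. Their sums did not overlap, at 20100 to 23300 in mutants and 10400 to 19600 in controls. Each of the 4 overlapped or touched between the groups on its own. Ibsp and Col1a1 weigh most in the sums, with control means of 12.64 and 13.02, against 9.52 for Sp7 and 9.96 for Alpl. Sums overlapped for the 10 epithelial markers (17600 to 22000 in mutants and 14200 to 22700 in controls) and the 5 measured erythroid markers (8690 to 12400 in mutants and 10800 to 16200 in controls), none of which was called. Sums also overlapped for the 8 endothelial markers (2040 to 2420 in mutants and 1890 to 2580 in controls), with 1 called lower, and the 8 leukocyte markers (1990 to 2310 in mutants and 1800 to 2440 in controls), with 1 called higher.

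The genes whose arrays varied most like Igfbp4 within the groups were Pop4, Notch3 and Trpm5, out of 3292 genes with enough level and spread. Igfbp4 itself, with an SD of 0.08 in mutants and 0 in controls, was below the within-group SD of 0.15 asked of those genes. After each group was centred on its mean, Pearson r over the 10 arrays was 0.934, 0.930 and 0.900 (Spearman rho 0.856, 0.913 and 0.714), and without control replicate 1 r was 0.939, 0.951 and 0.931. On the probe set used, Igfbp4 read 12.8 in all 5 controls, so the shared variation lay in the mutant arrays alone, at 12.9 to 13.1. Leaving out control replicate 1 therefore could not check the likeness. The arrays share processing, the genes were picked for the highest r, and no p is given. Pop4 encodes a subunit of ribonuclease P, Notch3 a Notch receptor and Trpm5 a cation channel, and their log2 fold changes were -0.40, 0.16 and 0.24 (adjusted p = 0.0304, 0.295 and 0.132).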

How the data were processed

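The deposited values are log2 values with 1 decimal that the authors made with RMA, a background correction, quantile normalization and probe summary. RMA comes from the submitters' processing notes, without a version, and software or scan batches are not stated in the sources used here. Every column of the table belongs to 1 of the 10 samples, and no 2 arrays shared more than 26.8% of their values. Members and gene lists were chosen with earlier results of these data known.

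Platform annotation gave 1 symbol to 34958 of 45101 probe sets, several to 932 and none to 9211. Symbols were updated through Entrez IDs in a RefSeq table (assembly GRCm38.p6), in which 34754 were found.

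Groups were compared in R 4.3.3 with limma 3.58.1 (lmFit, eBayes), mutant minus control, two-sided, without filter or covariate, with Benjamini-Hochberg adjustment over all 45101 probe sets or, with the probe set of highest mean per gene, over 18194 genes. A call is an adjusted p under 0.05, and intervals are at 95%. Both fits were also run on simulated data with independent noise for each value. That run cannot check the calls against variation that many probe sets of an array share.

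All 28 member probe sets are named, with the called pathway genes or the smallest p of a role group without a call. Pappa, the named cell type markers and the pairs of probe sets set against each other were chosen after values were seen. For members called on their brightest probe set, the 3 genes of highest within-group Pearson r were named, among genes with a mean of at least 7 and a within-group SD of at least 0.15.

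Alternatives were each array left out, the replicate number as a block, quantile normalization again, median centring, array weights, a robust fit with an intensity trend, the brighter 60% of features, Eif2s3y as a covariate, and other ways to represent a gene.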

Additional observations from a re-analysis of the deposited data

Results flagged for a closer look

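In 10 of 56 groups of 5 arrays, over the 28 probe sets, the highest or lowest array stood apart by Dixon's ratio, which chance alone gives in about 1 of 20 groups. The controls of Igfbp4 1437405_a_at, all at 12.8, have no spread and could not be tested. In 6 of the 10 the gap was 1 step of the rounding (0.1), so the ratio carries little there: Igf1 1437401_at at 12.1 in mutant replicate 3, Igf2 1448152_at at 13.4 in mutant replicate 2, Igfbp4 1421992_a_at at 11.1 in control replicate 4, Igfbp4 1437406_x_at at 12.8 in control replicate 1, Igfbp5 1452114_s_at at 13.0 in mutant replicate 5 and Igfbp7 1437804_at at 7.3 in mutant replicate 3. The other 4 had gaps of 0.3 to 0.5. Igf1 1434413_at read 11.3 in mutant replicate 2, with 11.6 in the nearest mutant. Igf1 1452014_a_at read 9.0 in control replicate 4, with 9.3 in the nearest control. Igf2r 1424111_at read 9.1 in control replicate 1, with 9.6 in the nearest controls, and Igfbp4 1423756_s_at read 12.3 there, with 12.6 in the other controls.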

How the results depend on the processing

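The count of member probe sets that were lower ranged from 0 to 1 when each array was left out, and was 0 with the replicate block, with Eif2s3y as a covariate and with 1 probe set per gene. The count that were higher was 0 without any 1 array, and was 2 with an intensity trend, 3 with array weights, 2 with the brighter 60% of features and 1 with 1 probe set per gene. Pathway genes higher ranged from 0 to 1 and lower from 1 to 2 without single arrays. Called genes numbered 1503 in all, 643 to 1798 without single arrays and 532 with the replicate block. Called probe sets numbered 1468 in all, 464 to 1988 without single arrays, 98 with the block, 2901 with array weights and 911 with Eif2s3y. No pairing by replicate number was seen: deviations of same-numbered arrays correlated at -0.0638 to 0.0749, and 0 of 10 arrays correlated best with their own number. A weak pairing could go unseen in these values. Adjusted p with the replicate block was 0.112 for Igfbp3 1458268_s_at, 0.0838 for Igfbp4 and 0.053 for Igfbp7.

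Some uncalled values changed sign. Quantile normalization again gave 0.004 for Igf1 1419519_at, 0.002 for Igf1r 1426565_at and -0.006 for Igfbp6. Array weights gave 0.06 for Igf2 1415931_at, and Eif2s3y gave 0.011 for Igf1 1419519_at. Without single arrays, values ran from -0.045 to 0.13 for Igf2r 1424112_at, -0.24 to 0.135 for Igf2 1415931_at, -0.085 to 0.04 for Igf1r 1426565_at, -0.005 to 0.295 for Igf1r 1446303_at, -0.015 to 0.11 for Igfbp6 and -0.025 to 0.10 for Igfbp7 1423585_at. The causes were not tested. The probe sets of Igfbp6, Igf1r 1452108_at and Igfbp7 1423585_at lie below the array medians.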
